A study of Mus musculus with 4 samples.

Results

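The joining segments of the T cell receptor alpha locus (Traj) were followed in RNA from mouse double-negative regulatory T cells, a suppressive kind of αβ T cell without either coreceptor, CD4 or CD8. Members were the rows of the deposited table whose GENCODE M21 symbol starts with Traj and whose gene type starts with TR_J. The rule reads no level, but the segments were selected on RPKM values of these 4 libraries seen in an earlier analysis, so their levels and genotype differences are given as a description. The rule found 59 of the 35275 rows, 50 typed as segments and 9 as pseudogenes. The annotation lists 60 such segments, and Traj47 was not analysed here. There were 2 libraries of wild-type and 2 of OX40-knockout cells, all of strain C57BL/6. Per the labels, each began with naive CD4 T cells that were converted to the double-negative state, and a sort then kept CD3+ TCRαβ+ cells that lacked NK markers, CD4 and CD8. OX40, encoded by Tnfrsf4, is a costimulatory receptor of activated T cells. The labels do not give the age of the animals, the part of Tnfrsf4 that was removed, or whether the replicates are different mice or cultures. Spread between libraries may therefore be technical, and p-values measure only that spread.

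In the thymus the RAG recombinase joins a V segment to a J segment of the alpha locus, and the loop of DNA between them is lost. The J array lies between the V segments and the constant gene Trac, with Traj61 at the V end and Traj1 next to Trac. First joins tend to use segments near the V end, and later rounds on the same chromosome move toward Trac. J segments on the Trac side of the join stay in the gene, inside the intron that splicing removes between the used J segment and Trac. Most J segments encode a phenylalanine or tryptophan followed by glycine, any residue and glycine (the FGXG motif), which shapes the end of the antigen-binding loop.

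The sequences below are those of the segments on which the results turn. They come from the GENCODE M21 transcripts (GRCm38), 5′ to 3′ on the coding strand. Capitals mark letters that match the FGXG motif, with no check of the reading frame. The marked letters of Traj7 lie in another frame than those of the other printed segments, with 24 bases after them against 23. The first group holds the highest segments, the next the segments of lowest p in each direction between the genotypes, and the last the segments of the invariant receptors.
Traj1: gtgtgcagatagctgctccatctttcctg
Traj7: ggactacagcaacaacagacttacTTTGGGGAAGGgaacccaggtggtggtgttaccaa
Traj5: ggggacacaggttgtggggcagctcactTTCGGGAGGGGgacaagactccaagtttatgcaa
Traj9: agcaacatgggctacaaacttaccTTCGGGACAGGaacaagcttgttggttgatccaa
Traj31: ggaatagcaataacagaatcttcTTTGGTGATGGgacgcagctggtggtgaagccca
Traj20: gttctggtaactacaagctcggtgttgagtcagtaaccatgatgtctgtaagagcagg
Traj26: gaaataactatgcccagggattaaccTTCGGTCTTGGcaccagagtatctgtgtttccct
Traj18: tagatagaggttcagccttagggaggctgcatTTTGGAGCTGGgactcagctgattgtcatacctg
Traj33: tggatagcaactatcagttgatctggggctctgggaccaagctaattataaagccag

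The motif was searched as TTTGGNNNNGG or TTCGGNNNNGG, which leaves out the tryptophan form. Reading frame was not checked, so a match need not encode the motif. In Traj7 and Traj46 the match is followed by 24 bases, against 23 in most segments with a match, and so lies in another frame. The letters were found on the coding strand of 41 of 50 segments (82%) and 1 of 9 pseudogenes (11.1%). On the other strand none of them held a match. In 34366 stretches of 60 bases from the middle of other transcripts, 0.53% matched on the sense strand and 1.16% on either strand. Traj33 and Traj20, printed above, lack these letters, and a missing match says nothing more. The annotated lengths ran from 29 bases for Traj1 to 72 bases for Traj61. The longest stretch shared by any pair of segments was 16 bases, between Traj45 and Traj53.

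RPKM values are read numbers scaled to the length of the transcript and the size of the library. Tnfrsf4, the targeted gene, was at 18.2 and 12.3 RPKM in wild-type cells against 12.1 and 9.38 RPKM in knockout cells, a log2 change of -0.46 (SE 0.23, limma adjusted p = 0.975). Reads of the targeted gene thus remained in both knockout libraries. Since the removed part is not known, this row does not check the labels. The library totals lay between 22220888 and 24395743 reads. The T cell marker Cd3e was at 248 RPKM or more in all 4. Cd4 reached 10.1 RPKM in OX40-knockout 1, above the 0.82 to 2.06 RPKM of the other 3. Klrb1c, the gene of the NK receptor NK1.1, was read at 42.8 to 160 RPKM in all 4 libraries, although the labels give a sort against NK markers.

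Traj segments were read thinly. Whole reads could be recovered for all 59 rows, and they summed to 443 and 603 in the wild-type libraries and to 330 and 291 in the knockout libraries. These were between 0.00129% and 0.00247% of the reads of a library. For a segment of 60 bases such as Traj22, 1 read was worth 0.718 RPKM in wild-type 1. No segment was at 0 in every library, and 17 were at 0 in at least 1. Intervals around a level are exact 95% Poisson intervals, which cover counting error only.

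Traj levels climbed along the array toward Trac in each library. Segments 42 to 61, at the V end, averaged 0.978 and 1.13 RPKM in wild-type 1 and 2 and 0.615 and 0.872 RPKM in OX40-knockout 1 and 2. The middle segments, 22 to 41, averaged 4.49, 4.99, 2 and 2.58 RPKM in the same order. Segments 1 to 21, at the Trac end, averaged 11.8, 16.2, 10.9 and 8.46 RPKM. Each library thus had its lowest class at the V end and its highest at the Trac end, and no library broke that order.

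The climb was close to monotonic. Spearman's rho between segment number and RPKM was -0.91 and -0.92 in the wild-type libraries and -0.86 and -0.84 in the knockout libraries, over 59 segments that share a library and a locus. Over all 4 libraries, Pearson's r of the log2 mean level with segment number was -0.94. The same r with GC content was 0.16 and with annotated length -0.36. In steps of 10 segment numbers, the mean over libraries went from 15.1 RPKM (1 to 10) to 9.36 (11 to 20), 5.45 (21 to 30), 2.12 (31 to 40), 1.44 (41 to 50) and 0.5 RPKM (51 to 61). The last step rests on 5 to 10 reads per library. The table does not separate spliced from unspliced reads, so the share of either in this signal was not tested.

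**Figure D1:**
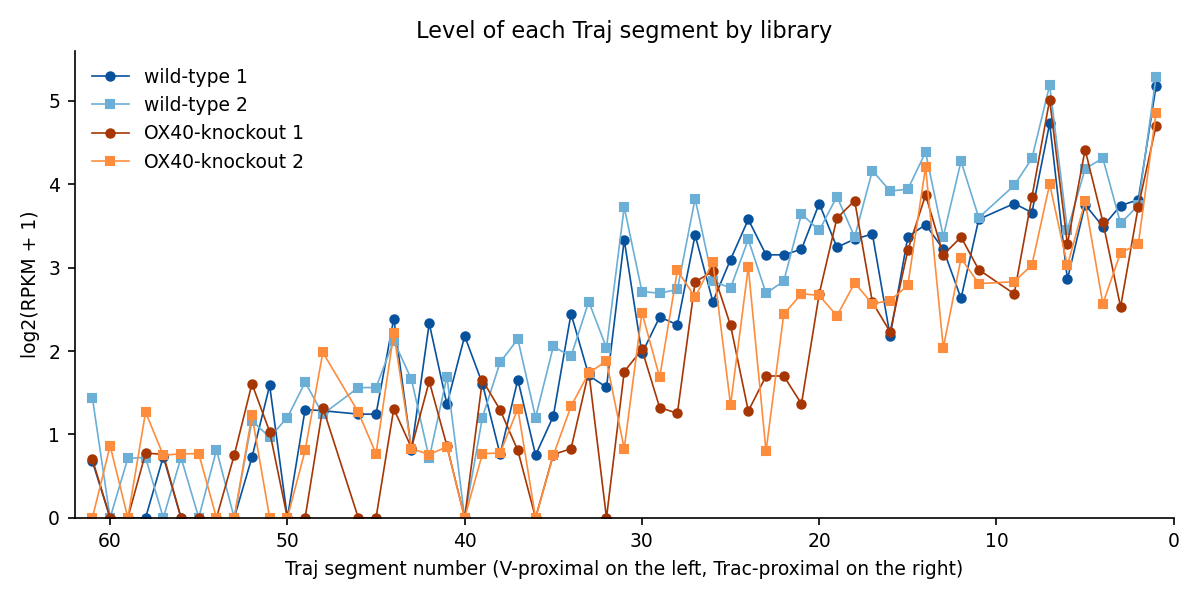
Level of each Traj segment as log2(RPKM + 1) on the vertical axis against segment number on the horizontal axis, from the V end (left) to the Trac end (right), 1 line per library. All 4 libraries climb to the right, from class means of 0.615 to 1.13 RPKM at the V end to 8.46 to 16.2 RPKM at the Trac end.

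Traj1, a pseudogene and the last segment before Trac, had the highest level. It stood at 35.1 (22 to 53.1) and 38 (24.6 to 56) RPKM in wild-type against 25 (14 to 41.2) and 27.9 (16.3 to 44.7) RPKM in knockout cells. Its level rests on 15 to 25 reads and on a length of 27 bases, so each read weighs more than in a segment of usual length. Traj7 came next, at 25.6 and 35.4 RPKM in wild-type against 31.3 and 15.0 RPKM in knockout cells. By reads it was the highest, with 35 and 51 against 41 and 20 reads. Its neighbours lay lower: Traj7 was 0.98 to 1.46 above the running median of 7 adjacent segments on the log2(RPKM + 1) scale in each library.

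Traj5 stood at 12.5 and 17.2 RPKM in wild-type against 20.3 and 12.9 RPKM in knockout cells. Traj14, a pseudogene of 34 bases, was at 10.4 and 19.9 against 13.6 and 17.5 RPKM. Traj8, a pseudogene of 37 bases, was at 11.6 and 18.8 against 13.4 and 7.18 RPKM. Traj2 was at 13.1 and 12.4 against 12.3 and 8.73 RPKM. In the first 3 of these the genotype groups overlapped, and in Traj2 they did not. At the V end, Traj61 held 1 and 3 reads in the wild-type and 1 and 0 reads in the knockout libraries, at most 1.71 RPKM. Its 0 reads in OX40-knockout 2 allow up to 2.27 RPKM, the upper end of the exact interval.

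Segments without a match to the searched letters were about as often above as below their neighbours. The search left out the tryptophan form, so such a segment can still hold the motif. The 9 segments typed as genes without a match stood at a median of 0.986 times the mean of their nearest neighbours with one. They ranged from 0.231 to 2.99 times, with 5 below and 4 above. Traj3 averaged 8.95 RPKM against 11.4 RPKM for Traj2 and Traj4, and Traj20 8.32 RPKM against 8.04 RPKM for Traj18 and Traj21. Among the 8 pseudogenes without a match the median was 0.878 times, with 4 below and 4 above. For comparison, the 4 Ighj and 5 Igkj rows, J segments of the antibody loci that B cells join, were listed at 0 in every library.

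The Traj signal was spread over many segments. Spliced and unspliced reads were not separated, so its evenness describes signal and not how often segments were joined. Evenness was measured as the effective number of segments, the exponential of the Shannon entropy of their shares of the summed Traj RPKM, which would be 59 if all were equal. It was 35.3 and 35.5 in the wild-type libraries and 28.1 and 32.9 in the knockout libraries, a difference of group means of -4.86 (35.4 ± 0.17 against 30.5 ± 3.38, mean ± SD, n = 2 each). Without OX40-knockout 1 the difference was -2.47. Over the rows typed as genes, evenness was 33.6 and 33.1 in the wild-type and 25.8 and 33.4 in the knockout libraries, so the groups overlapped. No test was run, since with 2 libraries per genotype the smallest two-sided p of an exact permutation test is 0.33.

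The gap lay mainly in OX40-knockout 1. A form of the measure that does not depend on the number of reads (inverse Simpson) gave 33.2 and 31.9 in the wild-type, 22.6 in OX40-knockout 1 and 33.2 in OX40-knockout 2. Brought to 291 reads in each library, 47.9 and 48.4 segments would be read in the wild-type, 45.7 in OX40-knockout 1 and 51 in OX40-knockout 2. The 5 highest segments held 28.8% and 29.4% of the summed RPKM in wild-type against 38.5% and 34.5% in the knockout libraries. Traj7 alone took 11.6% in OX40-knockout 1, and Traj1 led in the other 3 libraries with 8.52% to 11.7%. By reads, Traj7 led in each library.

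Position along the array told the same library apart. The mean segment number, weighted by RPKM, was 16.3 and 16 in the wild-type and 13.7 and 16 in the knockout libraries. Its difference between group means was -1.29, and -0.17 without OX40-knockout 1. Counted from Traj1, 50% of the signal was reached at Traj11 in OX40-knockout 1 and at Traj14 in the other 3 libraries. Segments 1 to 21 took 65.9% (61.4 to 70.2) and 70.5% (66.7 to 74.0) of Traj reads in the wild-type, 79.1% (74.4 to 83.1) in OX40-knockout 1 and 67.7% (62.1 to 72.8) in OX40-knockout 2 (Wilson 95% intervals, which cover counting error only and not the spread between libraries). OX40-knockout 1 had the highest share, and the groups overlapped.

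**Figure D2:**
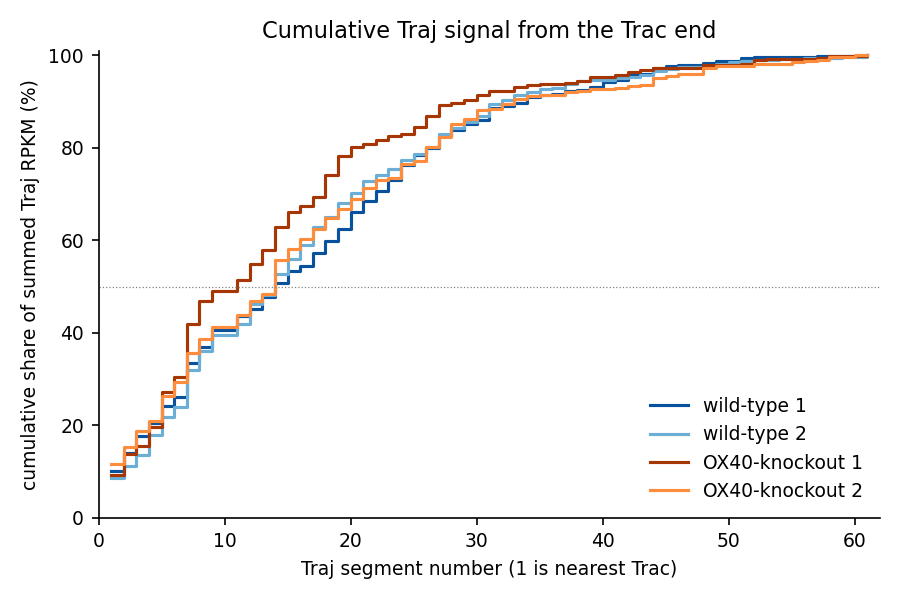
Cumulative share of the summed Traj RPKM in percent (vertical axis) from Traj1 upward in segment number (horizontal axis), 1 line per library, with 50% dotted. OX40-knockout 1 reaches 50% at Traj11 and the other 3 libraries at Traj14.

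Read by read, the profiles of the libraries lay close to each other. The chi-square of the reads over segments, divided by its degrees of freedom, was 0.969 between the wild-type libraries, 1.2 between the knockout libraries, 1.09 between wild-type 1 and OX40-knockout 2, and 0.985 between wild-type 2 and OX40-knockout 2. It was 1.46 and 1.29 for OX40-knockout 1 against wild-type 1 and 2. A value near 1 is what sampling of reads alone gives. The pairs that hold OX40-knockout 1 were the 3 farthest above it.

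The comparison of genotypes asked how Traj levels differ between knockout and wild-type cells. Both knockout libraries held less Traj signal than both wild-type libraries. The summed level was 344 and 445 RPKM in wild-type against 269 and 237 RPKM in knockout cells, or 395 ± 72 against 253 ± 22.5 RPKM (mean ± SD, n = 2 each), a log2 ratio of group means of -0.64. Leaving out each library in turn gave ratios from -0.81 to -0.44. In bulk RNA, fewer cells with a segment and less RNA of it per cell cannot be told apart.

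Trac, which encodes the constant region of the alpha chain and is read from the same transcripts, overlapped between the genotypes. It stood at 250 and 203 RPKM in wild-type against 279 and 159 RPKM in knockout cells, with OX40-knockout 1 highest and OX40-knockout 2 lowest. The summed Traj level over that of Trac was 1.37 and 2.19 in the wild-type and 0.965 and 1.49 in the knockout libraries. On that scale the log2 ratio of group means was -0.54, and OX40-knockout 2 lay above wild-type 1.

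**Figure D3:**
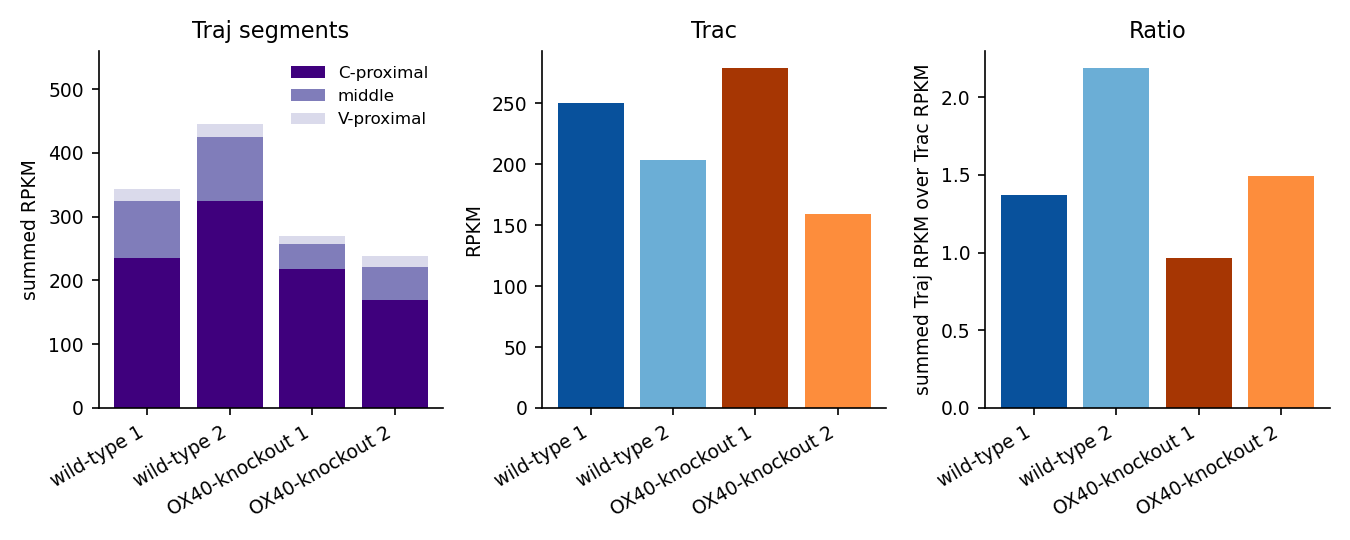
Left, summed RPKM of Traj segments per library, stacked by position class; middle, RPKM of Trac; right, the ratio of the sums to Trac. The Traj sums of the knockout libraries, 269 and 237 RPKM, lie below those of the wild-type libraries, 344 and 445 RPKM, while Trac and the ratio overlap between genotypes.

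As a ratio the middle of the array was lowest in the knockout, while in RPKM the Trac end had the larger difference of group means (-86.4 against -48.9 RPKM). Segments 22 to 41 summed to 89.8 and 99.8 RPKM in wild-type against 40 and 51.6 RPKM in knockout cells, 0.484 times the wild-type mean. At the Trac end the knockout stood at 0.691 times the wild-type, and its libraries (218 and 169 RPKM) lay below both wild-type libraries (235 and 324 RPKM). The V end was at 0.706 times, with 18.6 and 21.4 RPKM in wild-type against 11.7 and 16.6 RPKM in knockout cells, from 16 to 32 reads. Whether these ratios differ from each other was not tested.

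In the finer steps, chosen after the values were seen, the ratio of knockout to wild-type was 0.729 for segments 1 to 10, 0.669 for 11 to 20, 0.531 for 21 to 30, 0.339 for 31 to 40, 0.553 for 41 to 50 and 1.09 for 51 to 61. Segments 31 to 40 averaged 2.82 and 3.5 RPKM in the wild-type (39 and 51 reads) and 1.06 and 1.09 RPKM in knockout cells (14 and 15 reads). Across the 47 tested segments, Pearson's r of the log2 change with segment number was 0.01 and with GC content -0.01, both close to 0. Such an r measures a straight line only, so it does not describe the fall and rise of the ratios above. The log2 change is of RPKM + 1, which shrinks differences at low levels.

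Segment by segment, 47 of the 59 members had a mean of at least 1 RPKM and were tested with all other such genes. The limma test of log2(RPKM + 1) called none of the 47 after Benjamini-Hochberg adjustment over 11625 genes, of which 0% were called, and the lowest adjusted p of a member was 0.895. At an unadjusted p under 0.05 it found 19 of the 47 lower (40.4%), against 0.843% of all tested genes, and none higher, against 0.551%. Without wild-type 2, 35 of the 47 were lower on average, with a median log2 change of -0.50. Of the 47, 7 had a knockout mean under 1 RPKM and so passed the filter through wild-type cells, among them 4 of these 19 (Traj35, Traj41, Traj45 and Traj49), while 1 had a wild-type mean under it. With no filter, 16 of all 59 members were lower at that unadjusted p, against 1.58% of 20996 genes. limma-voom on the recovered reads called none either, with 5 of the 47 at an unadjusted p under 0.05, all lower. Of the 1473 genes in that fit, 22 were lower at the same limma-voom threshold. Reads of neighbouring segments can come from the same transcript, so the members are not independent of each other.

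The direction was shared by most of the array. Of the 47 tested segments 42 were lower on average (89.4%), against 56.6% of all tested genes, and their median log2 change was -0.67, against -0.03 for all genes. In 23 (48.9%) both knockout libraries lay below both wild-type libraries, against 17.8% of all tested genes, and in 3 (6.38%) both lay above, against 8.66%. Without wild-type 1 the former count was 37, and without wild-type 2 the latter was 12, where fewer libraries have to be apart. As shares of each library's own Traj signal, 12 did not overlap downward and 6 upward. No share over all genes is given beside these alternative counts, so they are not read as a result about the segments. By class, 18 of 20 tested segments at the Trac end were lower with a median of -0.59, and 17 of 18 in the middle with -0.87. At the V end, where only 9 of 19 members were tested, 7 were lower with a median of -0.5. There Traj43, Traj45, Traj46, Traj49 and Traj51 passed the filter through wild-type cells only, and Traj52 through knockout cells only. The V-end count thus does not measure a direction. In the middle, Traj35 and Traj41 also passed through wild-type cells only. Of 43 tested segments typed as genes 39 were lower, and of 4 pseudogenes 3.

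**Figure D4:**
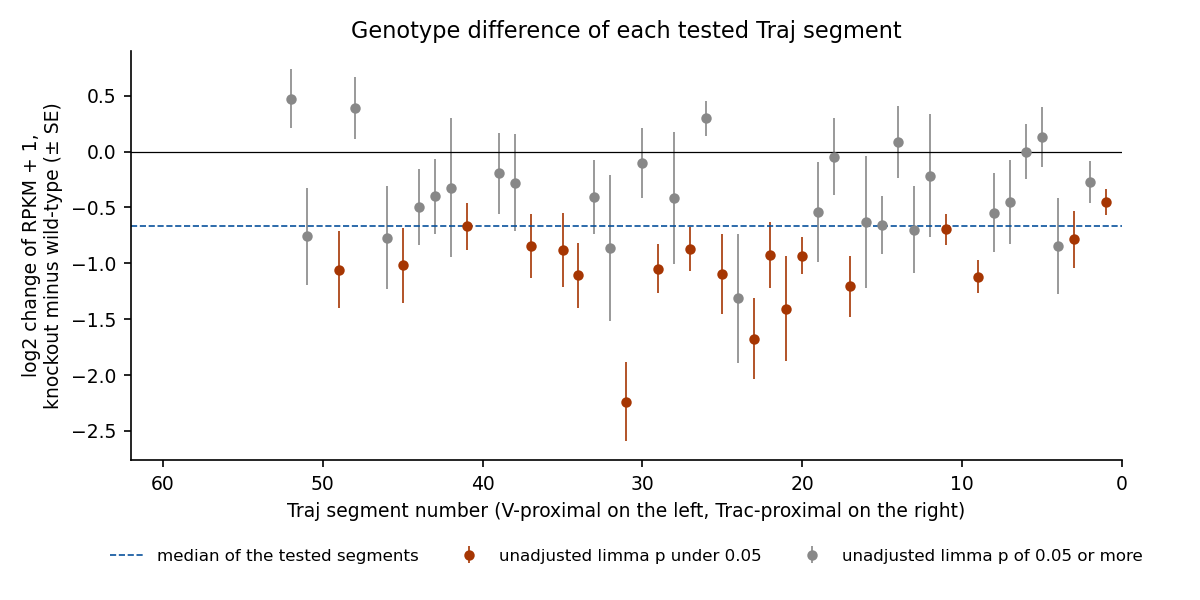
Log2 change of RPKM + 1, knockout minus wild-type, with its standard error (vertical axis), for the 47 tested segments by number (horizontal axis), with segments of unadjusted limma p under 0.05 in brown. 42 segments lie below 0, around a median of -0.67 (dashed), and none passed the adjusted threshold.

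Traj9 had the lowest p. It stood at 12.6 and 14.8 RPKM in wild-type against 5.43 and 6.11 RPKM in knockout cells, from 17, 21, 7 and 8 reads. The groups did not overlap, and the knockout was lower with a log2 change of -1.12 (SE 0.15, limma adjusted p = 0.895). Traj31 had the largest change of all tested members, at 9.07 and 12.2 RPKM in wild-type against 2.37 and 0.777 RPKM in knockout cells. Its 12 and 17 reads against 3 and 1 gave a log2 change of -2.24 with a standard error of 0.36 (limma adjusted p = 0.975), and it was lower under each of 13 settings, with log2 changes from -2.85 to -1.25.

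Traj20 was at 12.6 and 9.89 RPKM in wild-type against 5.43 and 5.35 RPKM in knockout cells, a log2 change of -0.93 (SE 0.16). Traj11 was at 11 and 11.1 against 6.86 and 6.01 RPKM, with both groups tight (-0.70, SE 0.14). Traj29 was at 4.31 and 5.47 against 1.5 and 2.22 RPKM (-1.05, SE 0.22), where the knockout values rest on 2 and 3 reads. None of these passed, with a limma adjusted p of 0.975 for each. Traj1, the highest member, was also lower in both knockout libraries, by a smaller log2 change (-0.45, SE 0.12).

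In 3 tested segments both knockout libraries stood higher. Traj26 was at 5.03 and 6.15 RPKM in wild-type against 6.75 and 7.38 RPKM in knockout cells (log2 change 0.30, SE 0.16), from 7 to 10 reads in each library. Traj48 was at 1.44 and 1.37 against 1.5 and 2.95 RPKM, and Traj52 at 0.653 and 1.24 against 2.05 and 1.34 RPKM. Those pairs rest on 1 to 4 reads per library, and every Poisson interval of one group overlapped those of the other. In Traj48 both wild-type libraries and OX40-knockout 1 held 2 reads each, so these 3 values differ by library size alone. Below the filter, both knockout libraries were also higher in Traj57 (0.663 and 0 against 0.692 and 0.682 RPKM). The same held for Traj58 (0 and 0.651 against 0.714 and 1.41 RPKM). Both segments were named after their values were seen and rest on 0 to 2 reads per library. In Traj57 wild-type 1 and both knockout libraries held 1 read each.

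In the segments of widest range, single libraries stood apart within a genotype. Traj21 stood at 8.31 and 11.5 RPKM in wild-type cells, at 1.58 RPKM in OX40-knockout 1 and at 5.44 RPKM in OX40-knockout 2. Traj24 was at 10.9 and 9.11 against 1.43 and 7.03 RPKM, so OX40-knockout 1 was the low library in both. Traj16 was at 14.1 RPKM in wild-type 2 and between 3.53 and 5.08 RPKM in the other 3. Traj12 was at 18.4 RPKM in wild-type 2 and between 5.2 and 9.31 RPKM elsewhere. Traj4 was at 10.3 and 18.9 against 10.7 and 4.92 RPKM, with the highest value in wild-type 2 and the lowest in OX40-knockout 2.

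**Figure D5:**
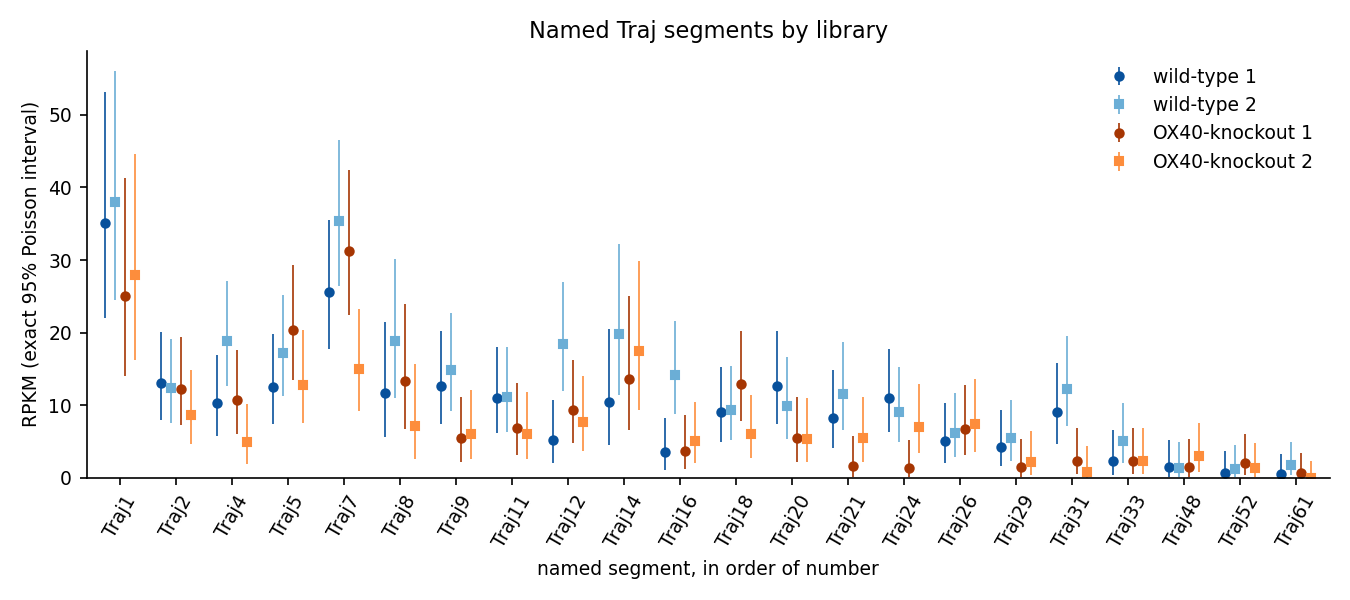
RPKM (vertical axis, linear) of the 22 named segments in order of number (horizontal axis), 1 point per library with its exact 95% Poisson interval. Traj1 and Traj7 stand highest, and for Traj31 the wild-type libraries, at 9.07 and 12.2 RPKM, lie above the knockout libraries, at 2.37 and 0.777 RPKM.

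The segments of the invariant receptors overlapped between the genotypes. Traj18, which invariant NKT cells join to Trav11, was at 9.14 and 9.32 RPKM in wild-type against 13.0 and 6.04 RPKM in knockout cells. OX40-knockout 1 was highest. There Traj18 lay 1.12 above the running median of its neighbours on the log2(RPKM + 1) scale, against -0.49 to 0.15 in the other 3 libraries. In OX40-knockout 1 the adjacent Traj19 lay 1.01 above, and Traj7, Traj26, Traj48 and Traj52 lay 1.25 to 1.61 above. Trav11 itself was at 0.262 RPKM or less and Trav11d between 0.247 and 2.26 RPKM. Zbtb16, the transcription factor of these cells, reached 10.9 RPKM in OX40-knockout 1, above the 1.63 to 2.64 RPKM of the others. Traj33, which MAIT cells join to Trav1, was at 2.27 and 5.03 against 2.37 and 2.33 RPKM, and Trav1 at 5.43 and 2.7 against 8.25 and 1.52 RPKM. Traj33 lay 0.92 above its neighbours in OX40-knockout 1, from 3 reads, and 0 to 0.54 above in the others. Zbtb16, Trav11d and Trav1 were each highest in that same library. The part of invariant cells in the Traj values was not tested.

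Of the other receptor segments, those of beta V also summed lower in both knockout libraries. The 22 beta V rows (Trbv) summed to 677 and 538 against 515 and 487 RPKM, with 18 of 19 tested rows lower, a median log2 change of -0.26 and 5 rows at an unadjusted limma p under 0.05. The 103 alpha V rows (Trav) summed to 173 and 146 RPKM in wild-type against 167 and 138 RPKM in knockout cells, with 32 of 48 tested rows lower and a median log2 change of -0.09. The 14 beta J rows (Trbj) summed to 511 and 1050 against 452 and 980 RPKM and so went with the replicate number. Of 13 tested Trbj rows 10 were lower, with a median of -0.3, and none had an unadjusted limma p under 0.05. The 2 delta J rows (Trdj) were both higher on average, with a median of 0.44. They summed to 52.5 and 169 against 65 and 237 RPKM, also going with the replicate number. The 1 gamma J row (Trgj) was at 13.4 and 6.72 against 8.12 and 10.2 RPKM, a log2 change of -0.06. These medians were set beside that of Traj as a description, without a test of the difference. Outside the receptor loci only 4 genes of at most 100 bases were tested, 2 higher and 2 lower.

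Genes of the receptor complex and of recombination were read from lists chosen with earlier results known. Of 7 tested constant and CD3 genes, 6 were lower on average and none passed limma's adjusted threshold or had an unadjusted p under 0.05, with a median log2 change of -0.1. Cd3g, a signalling chain of the complex, was at 769 and 593 RPKM in wild-type against 724 and 575 RPKM in knockout cells, and Trbc2, a beta constant gene, at 510 and 509 against 482 and 646 RPKM. Of 20 recombination genes 17 were tested, 7 higher and 10 lower on average, and again none passed either threshold. Rag1 and Rag2, the recombinase itself, were listed at 0 in all 4 libraries. Dntt, which adds bases at the joints, was at 0.449 RPKM or less. Ptcra, the beta chain's partner in early thymocytes, was at 0.0691 RPKM or less. Nhej1, an end-joining factor, was at 4.78 and 4.11 against 2.66 and 3.33 RPKM. Dclre1c, the nuclease that opens the hairpin ends, was at 7.6 and 8.05 against 5.98 and 6.83 RPKM. Among the 7 higher genes, Ets1 was at 193 and 206 against 284 and 213 RPKM. Runx1, also higher on average, overlapped at 13.8 and 18.2 against 24.4 and 17.5 RPKM.

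Markers of other cells were read as well. The summed NK markers (5 of 5 tested, all lower on average) stood at 339 and 492 RPKM in wild-type against 200 and 484 RPKM in knockout cells. Ncr1, a receptor of NK cells, was at 0.408 and 7.93 against 0.183 and 7.49 RPKM, following the replicate number. The 3 CD4 and CD8 genes summed to 14.6 and 14.9 against 31.1 and 13.1 RPKM, and the 6 myeloid genes to 3.58 and 9.85 against 2.59 and 6.34 RPKM, with Siglech at 0 throughout. The 6 B cell genes summed to 15.9 and 14.1 against 26.8 and 13 RPKM, mostly from Ighm, with Ms4a1 at 0. Of the γδ T cell markers Sox13 was at 1.01 RPKM or less, and the other 4 were not analysed here. The part of these cells in the Traj values was not tested.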

How the data were processed

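RNA sequencing measured gene expression in 2 wild-type and 2 OX40-knockout libraries. The authors deposited 1 table of RPKM values holding 4 library columns, and the unit was read off the values. Bowtie 0.12.2 and the build mm8 are named in the submitters' processing notes. Counting tool, annotation and strand setting were not given in the sources used here, nor was the handling of multi-mapping reads. GENCODE M21 (GRCm38) names 34490 of the IDs, and no coordinates are printed because the builds differ. Each library total was the number that most single-transcript genes at 1 read gave. Traj reads were whole within 0.02 at the annotated length in 57 segments, and within 5 bases of it in 2 (Traj1, Traj14).

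log2(RPKM + 1) was tested with limma 3.58.1 in R 4.3.3 (empirical Bayes, trend on). The 11625 genes averaging 1 RPKM or more were fitted with no block, Benjamini-Hochberg adjustment and a threshold of 0.05. The fit was tested on simulated data. Named segments were the 6 of highest mean, Traj18 and Traj33, the 5 of lowest p in each direction without overlap (3 were found upward), the 6 of widest range at a mean of at least 5 RPKM, and both ends. The members, lists and classes were chosen with earlier results of these data known. Alternatives were other pseudocounts (0.1 and 5), filters, scalings, weights, the replicate block and each library left out. limma-voom, the ratio to Trac, segments of at least 50 bases and the non-overlap counts with each library left out were added after the data were seen. Python 3.11.15, numpy 2.4.6, pandas 2.3.3, scipy 1.17.1 and matplotlib 3.10.9 were used.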

Additional observations from a re-analysis of the deposited data

How the results depend on the processing

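No Traj segment was called by limma under any of the 12 alternatives. Over all genes, 1 was called with quantile normalization, 5 with the replicate block, and 0 to 1 with a library left out. The median log2 change of the tested segments stayed below 0 throughout: it was -0.34 with a pseudocount of 5 and -0.84 to -0.50 with a library left out. Segments whose groups did not overlap upward numbered 5 with no filter, 1 at a mean of at least 5 RPKM, 6 as shares of the Traj sum, 1 relative to Trac, and 4 to 12 with a library left out. Downward they numbered 14 at a mean of at least 5 RPKM (of 25 segments), 12 as shares of the Traj sum and 26 to 37 with a library left out, where fewer libraries have to be apart. No share over all genes is given beside these counts. The differences of group means in summed level, evenness and mean segment number kept their sign under every alternative run. Over rows typed as genes, OX40-knockout 2 lay between the wild-type libraries in evenness (33.4 against 33.6 and 33.1). In mean segment number it lay above both there (18.4 against 18.2 and 17.6). With a library left out, evenness differed by -7.25 (without OX40-knockout 2) to -2.47 (without OX40-knockout 1) and the mean segment number by -2.40 to -0.17 in the same fits, so the size of both rests on OX40-knockout 1. The labels do not say that replicate numbers pair libraries. With the replicate block, 26 segments had an unadjusted limma p under 0.05 (all lower), against 176 of 11625 genes lower. None of the segments was called, and their lowest adjusted limma p was 0.0837. Over all alternatives the lowest adjusted p of a member was 0.0526, without OX40-knockout 2, where the wild-type pair alone gives the spread, the lone knockout library is assumed to vary like it, and 3832 of 11625 genes had an unadjusted p under 0.05. Deviations from the group mean of same-numbered libraries correlated at 0.47 over all tested genes and at 0.07 over Traj segments. Depth limits single segments most, since 12 members averaged under 1 RPKM, near the value of 1 read.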
